A study of Mus musculus with 4 samples.

Results

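The genes that carry peptides to the cell surface on MHC class II molecules were followed in single-cell RNA-sequencing (scRNA-seq) of hematopoietic cells from bone marrow (BM) and spleen. The 8 genes, of 32285 in the files, were listed by name for their role: Cd74, H2-Aa, H2-Ab1, H2-Eb1, H2-DMa, H2-DMb1, Ciita and Ctss. Each was described in every marker-defined cell class and every library, beside its level in free RNA, which is the RNA of droplets too poor in UMIs to hold a cell. All 8 were found in the files.

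There were 4 groups with 1 library each. CBM and TBM were the marrow of control and of tumor-bearing mice, and CS and TS were their spleens. All came from C57BL/6J mice of 8 to 16 weeks, which in the study's methods were female. Tumor-bearing mice carried PyMT-B6, a line grown from mammary tumors of an MMTV-PyMT mouse and placed under the skin, while the control mice had no tumor. Tissues were digested, lineage-positive cells were depleted, and Kit+ progenitors and CD45- cells sorted by CD31 and CD51 were combined in equal parts, so the share of a class among all barcodes was set largely by the sort. The number of mice behind a library was not given in the sources used here. With 1 library per group no test between conditions was possible, and every interval below covers counting error only.

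Class II molecules are dimers of an alpha and a beta chain that display peptides from endosomes to CD4+ T cells. In C57BL/6J mice the only conventional pair is I-A, made of H2-Aa and H2-Ab1, because the strain has a defective H2-Ea gene, so that H2-Eb1 protein lacks its partner. Cd74 is the invariant chain that fills the groove of a new dimer, Ctss is cathepsin S, the protease that trims Cd74, and H2-DMa and H2-DMb1 form the exchange factor that swaps the last Cd74 fragment for a peptide. Ciita is the transcriptional coactivator without which dendritic cells and B cells make little of these chains. Dendritic cells, B cells and macrophages are the classical users of the pathway, and progenitors and red cell precursors are not.

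5 of the members lie in the MHC on chromosome 17 of mm10, in the order H2-DMa (34119541 to 34139101, plus strand), H2-DMb1 (34153072 to 34160230, plus), H2-Ab1 (34257689 to 34269419, plus), H2-Aa (34282744 to 34287823, minus) and H2-Eb1 (34305867 to 34316674, plus). Ctss lies on chromosome 3 (95526786 to 95556403, plus) and Ciita on chromosome 16 (10480059 to 10528418, plus). H2-DMa overlaps other annotated genes, among them Brd2 on the opposite strand and CR974462.3 on its own. H2-DMb1 has the near-identical neighbor H2-DMb2, so reads that fit both could not be assigned with certainty.

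Promoters are shown because the members' levels ranged from together to apart across the classes below, and the class II chains share a known pair of elements. These are the X box, bound by the RFX complex, and the Y box, bound by NF-Y, on which Ciita is assembled. The sequences are RefSeq's for GRCm38.p6, from 110 to 11 bases before the annotated start, on the strand of the gene. Capitals mark CTNGNAAC, taken as the core of the X box, and GATTGG, taken as the Y box (written CCAATC where it lies on the other strand). Both strings were chosen after the sequences had been seen.
H2-Aa, chr17:34287834-34287933, minus strand: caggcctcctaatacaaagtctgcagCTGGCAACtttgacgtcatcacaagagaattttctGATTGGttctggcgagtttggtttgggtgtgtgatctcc
H2-Eb1, chr17:34305757-34305856, plus strand: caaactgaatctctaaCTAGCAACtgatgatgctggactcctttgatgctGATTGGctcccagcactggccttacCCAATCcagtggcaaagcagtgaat
H2-Ob, chr17:34238795-34238894, plus strand: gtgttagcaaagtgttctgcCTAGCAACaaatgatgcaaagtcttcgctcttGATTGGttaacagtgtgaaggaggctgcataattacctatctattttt
Ctss, chr3:95526676-95526775, plus strand: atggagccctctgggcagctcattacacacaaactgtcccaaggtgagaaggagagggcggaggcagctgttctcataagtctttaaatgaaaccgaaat

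The X core and the Y box followed each other on the gene strand with 27 bases between them in H2-Aa and H2-DMb1, 26 in H2-Eb1 and 24 in H2-Ob, the beta chain of the inhibitor of the H2-DM dimer. Of 32851 promoter windows of 250 bases, 10.9% held CTNGNAAC and 14.6% held GATTGG on either strand, and 1.63% held both. The ordered pair with at most 30 bases between was found in 24 windows, or 0.0731%. Neither RefSeq start of H2-DMa had the X core, and the window of Ctss had neither string. H2-Oa and H2-DMb2 had a Y box and no X core, and H2-Eb2 had both in the other order. A match is only a run of letters, and its absence says nothing about binding. H2-Ab1 and Ciita had no entry in the promoter table. The promoter of Cd74 was not described here, and Cd74 was not among the 24 windows with the ordered pair.

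Barcodes with at least 1000 genes and at most 10% mitochondrial UMIs were kept, which left 3497 and 4340 in the marrows CBM and TBM and 3236 and 5188 in the spleens CS and TS. The libraries held 101811035 to 176094297 UMIs in all, the median depth of a kept barcode was 13738 and 14386 UMIs in CBM and TBM and 26322.5 and 26808 in CS and TS, and any pair of libraries shared 2 to 9 barcodes. Clusters were made without the 8 genes and the other lists described here, 26 of 36 were named from marker genes, and 10 clusters with 3473 barcodes stayed unnamed. Levels (CPM) are the summed UMIs of a gene scaled to 1000000 UMIs of the class and library. Because UMIs were counted at the 3′ end, a level does not grow with transcript length, though capture can differ between genes.

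The class II chains and Cd74 were concentrated in few barcodes. In CS the conventional dendritic-like cluster, led by Plbd1, Xcr1, Naaa and Ifi205 with Clec9a and Batf3 among its top 50 genes, held 303 barcodes, which is 9.36% of the library, and 90.0% of all UMIs of Cd74, H2-Aa, H2-Ab1 and H2-Eb1 combined. In TS the same cluster had 28 barcodes, 0.54% of the library, and 64.9% of those UMIs. Only 2 CBM barcodes and 1 TBM barcode fell in it. In BM these 4 genes came mostly from elsewhere: monocyte-like barcodes held 45.3% of their UMIs in CBM and 34.5% in TBM, and HSPC-like barcodes, the hematopoietic stem and progenitor cells, 25.7% and 20.6%. Of the barcodes, the monocyte-like class made up 23.8% in CBM and 6.43% in TBM, and the HSPC-like class 23.5% and 21.1%. The HSPC-like share of the UMIs was thus near its share of barcodes. The monocyte-like share of the UMIs lay largely in 1 cluster, cluster 25, described below. Without it the monocyte-like summed level of the 4 genes was 31.6 CPM in place of 121 in CBM, and 8.43 in place of 164 in TBM. Granulocyte-monocyte progenitor-like barcodes held 3.30% in CBM and 22.6% in TBM, while they made up 6.83% and 23.9% of the barcodes and their summed level of the 4 genes was 32.7 and 22.7 CPM. Barcodes with at least 1000 CPM of the 4 genes numbered 46 and 31 in CBM and TBM, but 419 in CS and 53 in TS.

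**Figure D1:**
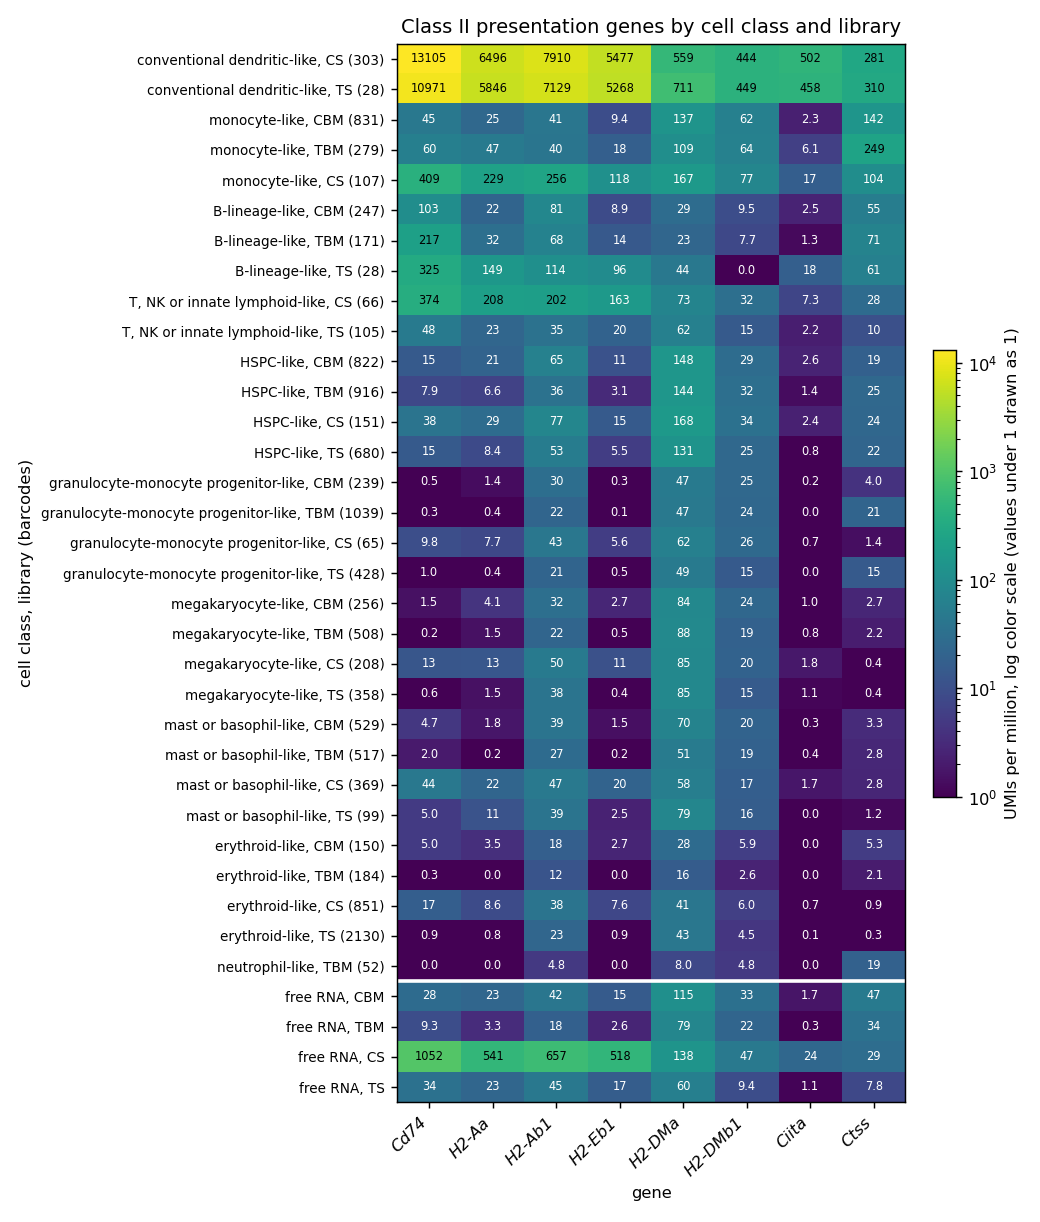
Heat map of the level of each of the 8 genes (columns, in CPM, on a log color scale) in each cell class and library with at least 25 barcodes, and in the free RNA of each library (rows). The conventional dendritic-like rows of CS and TS stand above every other row, with Cd74 at 13105 and 10971, and the free RNA of CS is far above that of the other libraries for Cd74, H2-Aa, H2-Ab1, H2-Eb1 and Ciita.

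Conventional dendritic cells are the specialized antigen-presenting cells of the spleen, and the Xcr1 and Clec9a subset is known for cross-presentation. Cd74, which lies on chromosome 18 of mm10 (60803848 to 60812652, plus strand), was in the dendritic-like barcodes at 13105 CPM in CS (exact Poisson 95% interval 13026 to 13185) and at 10971 in TS (10663 to 11285). H2-Ab1 stood at 7910 and 7129 CPM, H2-Aa at 6496 and 5846, and H2-Eb1 at 5477 and 5268. The order of these 4 levels, Cd74 over H2-Ab1 over H2-Aa over H2-Eb1, was the same in both spleens, and in each spleen the intervals of neighbors in the order did not overlap. The other members were lower. H2-DMa was at 559 CPM in CS and 711 in TS, Ciita at 502 and 458, H2-DMb1 at 444 and 449, and Ctss at 281 and 310. Ciita and H2-DMb1 in TS had overlapping intervals (397 to 526 and 388 to 516). The 28 TS barcodes were shallower, with a median of 13477.5 UMIs against 24951 in CS, and 1 of them held 8.69% of the UMIs of the 4 genes. Their median doublet score was 0.0821 against 0.0119 in CS, where the 95th percentile of all TS barcodes was 0.1059.

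A further group of dendritic character had high levels of the chains but little H2-DMb1. Cluster 27 was left unnamed because its leading genes mixed classes, and at a finer resolution it came apart into a group led by Ccl5, Fscn1 and Ccr7 and a group with T cell receptor genes. Fscn1 and Ccr7 mark dendritic cells that have matured and migrate toward T cell zones. The Fscn1 and Ccr7 group had 47 barcodes in CS, 13 in TS, 2 in TBM and none in CBM. The boundary of this group was drawn after the values had been seen, and both groups came from 1 library, so the ratios are descriptions.

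In CS, Cd74 was at 10794 CPM in the Fscn1 and Ccr7 group against 13105 in the dendritic-like cluster, and H2-Aa at 5714 against 6496, H2-Eb1 at 5234 against 5477 and Ciita at 402 against 502. H2-Ab1, the partner of H2-Aa, was at 4667 against 7910, a log2 difference of 0.76 (exact conditional 95% interval 0.70 to 0.82). The widest gap among the members was in H2-DMb1, at 79.6 CPM against 444, 5.58-fold lower in the Fscn1 and Ccr7 group (log2 difference of the dendritic-like cluster over the group 2.48, interval 2.04 to 2.95). Its near-identical neighbor H2-DMb2 ran the other way, at 349 against 71.1 CPM, so the sum of both genes differed less than either. H2-DMa, the alpha chain that pairs with them, was at 423 against 559. Ctss went against the chains, with 554 CPM in the Fscn1 and Ccr7 group and 281 in the dendritic-like cluster (log2 difference -0.98, interval -1.16 to -0.80). In TS, where the Fscn1 and Ccr7 group had 13 barcodes, the chains and Cd74 were lower against the dendritic-like class than in CS. Cd74 was at 5850 CPM against 10971, H2-Aa at 3065 against 5846, H2-Ab1 at 2125 against 7129 and H2-Eb1 at 2448 against 5268. H2-DMb1 was at 98.2 against 449 there, and Ctss at 526 against 310. In this group 10 of the 13 TS barcodes had at least 1000 CPM of Cd74, H2-Aa, H2-Ab1 and H2-Eb1 summed, against all 47 in CS. 1 TS barcode held 490 of the group's 1923 UMIs of these genes. The median doublet score of the group was 0.0952 in TS and 0.0672 in CS.

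Other genes of the pathway differed between these groups too. Ifi30, the lysosomal thiol reductase that unfolds antigens, was at 948 CPM in the Fscn1 and Ccr7 group against 431, and Lgmn, the asparaginyl endopeptidase, at 60.7 against 16.8. Cst3, the cathepsin inhibitor cystatin C, was at 2063 against 14405. The co-stimulatory genes Icosl (245 against 24.4), Cd40 (77.8 against 26.4) and Cd83 (216 against 64.7) were higher in the Fscn1 and Ccr7 group, as was Cd274, which encodes the checkpoint ligand PD-L1, at 91.0 against 7.34. The co-stimulatory ligand Cd86 was lower there, at 118 against 167. March1, the ubiquitin ligase that removes class II molecules from the surface, was at 75.9 against 172. H2-Eb2, a paralog of H2-Eb1, was at 83.4 against 6.09.

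Across 29 combinations of class and library with at least 50 barcodes, the 8 members did not form 1 block. H2-DMa was the highest of the 8 in 21 combinations, Cd74 in 5 and Ctss in 3. Among the 4 genes Cd74, H2-Aa, H2-Ab1 and H2-Eb1, H2-Ab1 was the highest in 21 and Cd74 in 8. Outside the dendritic-like class H2-DMa spanned 7.95 to 168 CPM and was never at 0, whereas Cd74, H2-Aa, H2-Eb1 and Ciita each reached 0 in some combination. Ciita was at 0 in 6 of 29 and reached at least 1 CPM in 15.

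**Figure D2:**
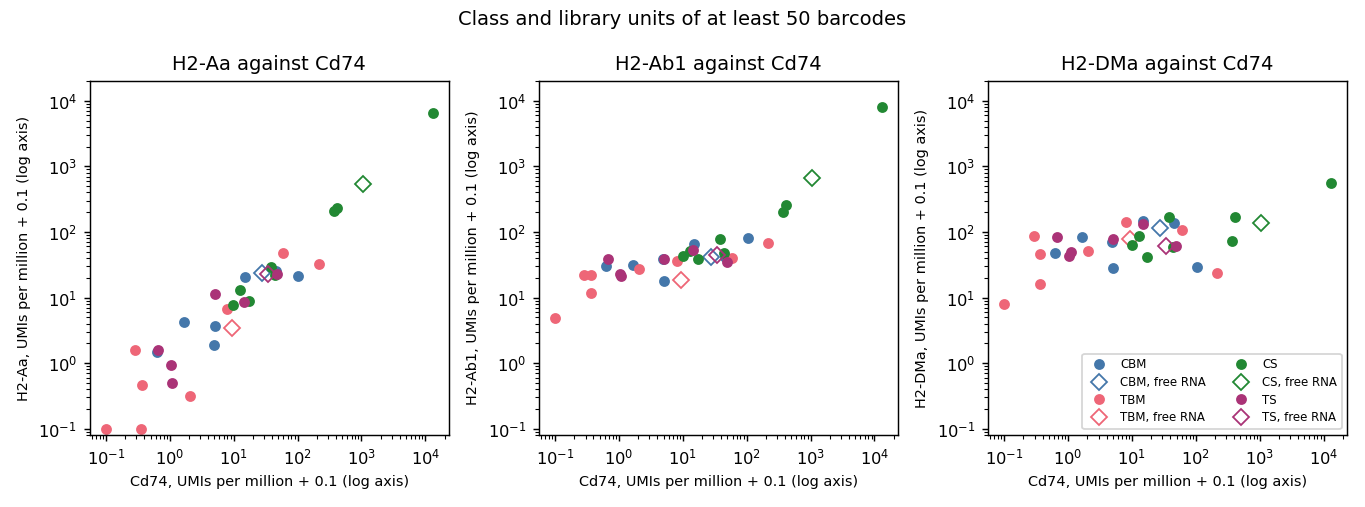
Levels of H2-Aa, H2-Ab1 and H2-DMa (vertical axes) against Cd74 (horizontal axis) in the 29 combinations of class and library with at least 50 barcodes, all in CPM with 0.1 added, on log axes. Diamonds are the free RNA of the 4 libraries. H2-Aa follows Cd74 over the whole range, H2-Ab1 flattens at low Cd74, where it stays at 4.77 CPM or more, and H2-DMa stays at 7.95 or more.

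Over these 29 combinations, the correlation across classes and libraries of log2(CPM + 10) with the mean of the other class II chains and Cd74 was 0.99 for H2-Aa, 0.98 for H2-Eb1, 0.96 for Cd74 and 0.95 for H2-Ab1. It was 0.92 for Ciita, 0.80 for H2-DMb1, 0.68 for Ctss and 0.63 for H2-DMa. Without the dendritic-like class it was 0.98 for H2-Aa, 0.95 for H2-Eb1, 0.93 for Cd74 and 0.88 for both H2-Ab1 and Ciita, but 0.59 for Ctss, 0.52 for H2-DMb1 and 0.38 for H2-DMa. The points share libraries, depth and free RNA, so these are descriptions. Among 3457 other genes with at least 100 CPM in 1 or more combinations, the 10 most like the 4 were Trafd1, Batf3, Phf11b, Ckb, Itgax, Camk1d, Tnni2, Bcl2a1b, Ifi205 and Shtn1, with correlations of 0.88 to 0.94. In the dendritic-like barcodes of CS they lay at 101 to 443 CPM, so that class alone could let them in. Batf3 is a transcription factor of the Xcr1 dendritic subset, Itgax is the integrin CD11c, and Batf3, Itgax and Ifi205 were also among the marker genes of the dendritic class. Without the dendritic-like class the correlations of the 10 fell to between 0.59 and 0.83. With log2(CPM + 1) in place of log2(CPM + 10), Camk1d, Bcl2a1b and Shtn1 were no longer among the top 10.

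Free RNA followed the dendritic-like barcodes in CS. In barcodes with at most 100 UMIs, Cd74 was at 27.5 CPM in CBM and 9.25 in TBM, and at 1052 in CS against 34.1 in TS. H2-Aa was at 23.2, 3.30, 541 and 23.0 CPM, and Ciita at 1.72, 0.33, 24.1 and 1.11, so CS stood apart for each of these genes. H2-DMa differed less, at 115, 78.6, 138 and 59.9. In CS, Cd74 made up 38.0% and H2-Ab1 23.7% of the UMIs of the 4 genes in free RNA, and 39.7% and 23.98% in the dendritic-like barcodes. Cd74 was above its own library's free RNA in 6 of the 29 combinations, and in CS in 1 of 8, the dendritic-like class.

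H2-Ab1 made up most of the UMIs of the 4 genes in several classes with little class II message. Its share in granulocyte-monocyte progenitor-like barcodes was 93.1% in CBM and 96.6% in TBM, and 64.9% in CS against 91.7% in TS. In megakaryocyte-like barcodes the shares were 79.0%, 90.9%, 58.1% and 94.0%, so in both classes CS was the lowest. In erythroid-like barcodes of TS, H2-Ab1 made up 89.7% of the UMIs of the 4 genes against 37.7% in the free RNA of that library, with H2-Ab1 at 22.8 CPM, under its free RNA level of 44.6, Cd74 at 0.93 and H2-Aa at 0.84. In TBM the erythroid-like share of H2-Ab1 was 97.8%, at 11.7 CPM against 18.2 in free RNA, with H2-Aa and H2-Eb1 at 0 UMIs in 184 barcodes, which by a floor of 3 counts allows up to 0.78 CPM. In CBM the share was 61.2%, with Cd74 at 5.01 CPM against 27.5 in free RNA. In CS, with its high free RNA, the share was 53.5%, and Cd74 was at 17.3 CPM. A single CS barcode with 73750 UMIs and a high doublet score held 15.8% of the UMIs of the 4 genes in that class.

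Monocyte-like barcodes came in 4 clusters that differed widely in class II level. Monocytes can take up class II expression as they mature into antigen-presenting cells. Cluster 25, with S100a4, Ccr2, Klf4, Cx3cr1 and Ms4a6c, had Cd74 at 548 CPM in CBM (98 barcodes, interval 511 to 588), 1162 in TBM (22 barcodes, 1059 to 1273) and 4077 in CS (22 barcodes, 3880 to 4283). H2-Aa ran in the same order at 336, 944 and 2306 CPM, and Ciita at 32.02, 123 and 179. The cluster was mixed, as 12 of the 98 CBM barcodes, 10 of the 22 in TBM and 12 of the 22 in CS had at least 1000 CPM of the 4 genes. Its top 50 genes held 5 monocyte markers and 1 conventional dendritic marker, but not Ly6c2, F13a1, Fn1 or Csf1r. Whether it held dendritic cells was not tested. For Cd74 and H2-Aa no intervals overlapped among the 3 libraries, while those of Ciita overlapped between TBM (91.0 to 163) and CS (140 to 226). H2-DMa differed less, at 426, 479 and 599 CPM, and Ctss had overlapping intervals in all 3, at 361, 389 and 438 CPM.

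Clusters 12 and 14, with F13a1, Ly6c2 and Ms4a6c, had little Cd74 and still had the processing genes. Cd74 was at 4.82 CPM in CBM and 1.84 in TBM in cluster 12, and at 0.52, 0.93 and 10.3 in CBM, TBM and CS in cluster 14. H2-Ab1 was at 6.98 CPM in CBM and 4.61 in TBM in cluster 12, and at 25.6, 17.6 and 30.1 in cluster 14. Ctss in cluster 12 was at 266 CPM in both CBM and TBM, close to its level in the dendritic-like class. H2-DMa was at 164 and 89.9 CPM there, and H2-DMb1 at 77.3 and 50.7. Cluster 32, with Cx3cr1, Ace and Csf1r, was almost confined to CBM (28 barcodes) and had Cd74 at 311 CPM, Ctss at 487, H2-Ab1 at 77.1, H2-Aa at 29.9 and H2-Eb1 at 9.95, that is, more invariant chain than class II chains.

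**Figure D3:**
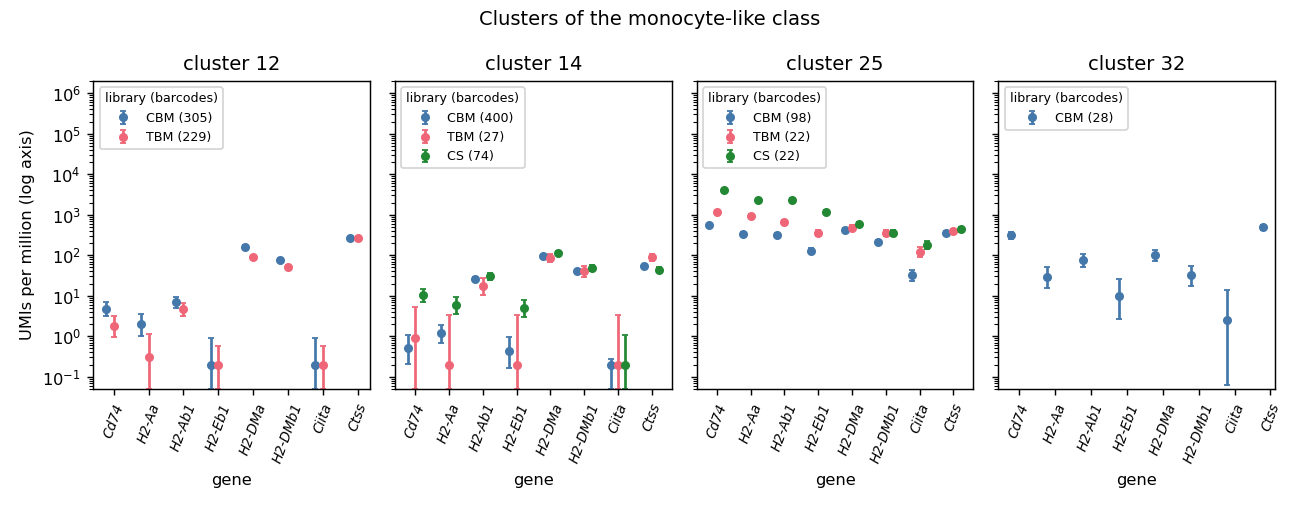
Levels of the 8 genes (CPM, log axis) with exact Poisson 95% intervals in the 4 monocyte-like clusters, for libraries with at least 20 barcodes; levels at or near 0 are drawn at the bottom of the axis. In cluster 25 Cd74 and H2-Aa are lowest in CBM and highest in CS, while clusters 12 and 14 have Ctss and H2-DMa with little Cd74.

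Summed over the class, monocyte-like Cd74 was at 45.2 CPM in CBM (831 barcodes), 59.6 in TBM (279) and 409 in CS (107). TBM over CBM, the log2 ratios of the 8 genes had a median of 0.60, and only Ciita was up by more than 2-fold (1.42, interval 0.82 to 2.02), where 4.79% of all genes tested were. CS over CBM the median was 2.77, with Cd74, H2-Aa, H2-Ab1, H2-Eb1 and Ciita up by more than 2-fold, 5 of 8, against 4.4% of all genes, and with H2-DMa (0.28), H2-DMb1 (0.31) and Ctss (-0.46) within 2-fold. Without cluster 25, a choice made after seeing the data, the median was -0.43 for TBM over CBM and 0.70 for CS over CBM. The summed level of the 4 genes was then 31.6 CPM in CBM, 8.43 in TBM and 56.2 in CS. H2-Eb1 and Ciita were then at 0 in TBM and entered the TBM over CBM median as 3 counts. The libraries also mixed the other clusters differently, with 305, 229 and 9 barcodes of CBM, TBM and CS in cluster 12 and 400, 27 and 74 in cluster 14. Ctss, at 266 CPM in cluster 12 of both marrows and 53.0, 89.8 and 44.5 in cluster 14, was higher in cluster 12 than in cluster 14 of each library. In CS, 1 barcode held 16.5% of the class's UMIs of the 4 genes, and in TBM 1 barcode held 23.6%.

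B-lineage-like barcodes were led by Ebf1, Vpreb3, Vpreb1 and Igll1, genes of B cell precursors. Their summed level of Cd74, H2-Aa, H2-Ab1 and H2-Eb1 was 215 CPM in CBM and 332 in TBM, far under the dendritic-like class of the spleens. It was still the highest among the marrow classes with at least 50 barcodes. Cd74 was at 103 CPM in CBM (247 barcodes) and 217 in TBM (171 barcodes), a log2 ratio of 1.07 (interval 0.76 to 1.39). Cd74 was thus 1 of 7 members with at least 10 UMIs that was up by more than 2-fold, where 5.66% of all genes were. H2-Aa was at 21.5 and 32.1 CPM and H2-Ab1 at 81.0 and 68.1, each with an interval of the log2 ratio that held 0. The median over these 7 genes was 0.36 against -0.06 over all genes. The class held different cells in the marrows. At a finer resolution it came apart into 2 clusters. One was led by Vpreb1, Vpreb3, Ebf1 and Igll1, with 157 barcodes in CBM and 22 in TBM. The other was led by Ebf1, Vpreb3, Cd79a and Ly6d, with 90 and 149. Cd79a, Cd79b and Ighm were among the top 50 genes of both clusters. Of the B-lineage markers, Ms4a1 was there only in the second, and Vpreb1 and Igll1 only in the first. Cd74 in the Ms4a1 cluster was at 361 CPM in CBM and 286 in TBM (log2 ratio -0.34, interval -0.67 to -0.0048), and in the Vpreb1 and Igll1 cluster at 16.9 and 24.5 from 20 and 5 UMIs (0.54, -1.23 to 1.99). Neither cluster, in this split made after seeing the data, was up by more than 2-fold. Free Cd74 ran the other way, at 27.5 CPM in CBM and 9.25 in TBM.

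In T, NK or innate lymphoid-like barcodes Cd74 was at 374 CPM in CS (66 barcodes) and 48.3 in TS (105), a log2 ratio of -2.95 (interval -3.27 to -2.66). 7 of the 8 genes were down by more than 2-fold, where 11.8% of all genes were, and only H2-DMa was not (73.3 and 61.9 CPM). The level was uneven: 10 of the 66 CS barcodes had at least 1000 CPM of the 4 genes, and 1 barcode held 21.2% of their UMIs with a doublet score at the 95th percentile of the library. Free Cd74 moved with it, from 1052 to 34.1 CPM. The erythroid-like barcodes moved in the same direction, with Cd74 at 17.3 CPM in CS and 0.93 in TS, and 5 of 8 members were down by more than 2-fold, where 7.85% of all genes were. H2-DMa was at 41.4 and 43.1 CPM there. These barcodes came from different clusters, with cluster 7 holding 690 in CS and 8 in TS, and clusters 1 and 2 holding 1015 and 1046 in TS but 81 and 15 in CS. The part of free RNA and of mixed barcodes in these differences was not tested.

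HSPC-like barcodes were a class that the Kit+ gate could take in. They comprised cluster 0, with Hlf, Dntt, Cd34 and Flt3, cluster 10, with Cd34, Hlf and Cd27, and cluster 17, led by Cxcl2, Dusp2, Ly6a and the immediate-early gene Egr1. Cluster 0 gave 685 of 822 barcodes in CBM and 695 of 916 in TBM, but 79 of 151 in CS and 42 of 680 in TS, where 359 were in cluster 17 and 279 in cluster 10. The libraries were thus compared over different mixtures of clusters.

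H2-DMa was the highest of the 8 genes in HSPC-like barcodes of each library, at 148 CPM in CBM and 144 in TBM, and at 168 in CS and 131 in TS. In megakaryocyte-like barcodes it was at 83.7, 87.9, 85.2 and 84.9 CPM in the same order, within 2-fold of the HSPC-like level in each library. After each barcode was thinned to 2000 UMIs, 24.6%, 24.3%, 27.2% and 23.8% of HSPC-like barcodes had an H2-DMa UMI, against 2.67%, 0.54%, 8.58% and 7.79% of erythroid-like barcodes. The erythroid-like class differed between tissues. Cluster 18, led by the hemoglobin genes Hbb-bs and Hba-a1, gave 109 of its 150 barcodes in CBM and 150 of 184 in TBM. In CS it gave 65 of 851 and in TS 61 of 2130. Without thinning, the HSPC-like shares were 84.3%, 81.9%, 94.7% and 82.5%. H2-DMb1 was at 28.9, 31.8, 34.3 and 24.5 CPM, and Ctss at 18.5, 24.8, 23.7 and 22.1. These 3 processing genes therefore lay within a narrow band across the 4 libraries. In free RNA of the same libraries H2-DMa was at 115, 78.6, 138 and 59.9 CPM, under its HSPC-like level in each. Free H2-DMb1 was at 33.1, 22.5, 47.0 and 9.43, above the HSPC-like level in CBM and CS. Free Ctss was at 47.3, 34.0, 29.2 and 7.76, above the HSPC-like level in CBM, TBM and CS.

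The chains and Cd74 were below H2-DMa in each library and varied more. H2-Ab1, above H2-DMb1 and Ctss throughout, was at 64.7 CPM in CBM (interval 60.4 to 69.2), 35.8 in TBM (32.9 to 39.0), 77.1 in CS (67.9 to 87.2) and 53.4 in TS (49.1 to 58.0). H2-Aa was at 20.6 CPM in CBM against 6.61 in TBM, and at 29.1 in CS against 8.39 in TS. Both genes were lower in the tumor-bearing library of each tissue, and for each the intervals did not overlap within a tissue. Cd74 was at 14.9, 7.91, 38.2 and 14.6 CPM and H2-Eb1 at 10.8, 3.07, 14.6 and 5.53, in the same arrangement. In CS the chains and Cd74 were far under free RNA, where H2-Aa was at 541 CPM and H2-Ab1 at 657. Their differences between the spleens could therefore not be told apart from free RNA. Ciita was close to the limit of what these counts can show, at 2.58, 1.36, 2.43 and 0.76 CPM, which in both spleens was 8 UMIs.

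Cd74 was seen in few HSPC-like barcodes. At 2000 UMIs, 3.17% in CBM (exact binomial 95% interval 2.08 to 4.61), 1.53% in TBM (0.84 to 2.55), 5.30% in CS (2.31 to 10.2) and 1.18% in TS (0.51 to 2.30) had a Cd74 UMI. In erythroid-like barcodes, which should lack it, the shares were 0.67%, 0% (0 of 184, exact upper limit 1.98%), 1.88% and 0.09%. Median depth before thinning was 14006, 13407.5, 19513 and 13632.5 UMIs in HSPC-like barcodes and 16482, 14334, 60966 and 37892.5 in erythroid-like ones. Hemoglobin-rich barcodes made up most of the erythroid-like class in the marrows but not in the spleens, so its values are not alike between tissues. The summed Cd74 level over all UMIs gave HSPC-like over erythroid-like log2 ratios of 1.58 in CBM (interval 0.86 to 2.39), 4.93 in TBM (2.42 to 10.2), 1.15 in CS (0.87 to 1.42) and 3.97 in TS (3.56 to 4.38). In TS 1 HSPC-like barcode weighed on this value: without it, Cd74 was at 5.25 CPM, against 0.93 in erythroid-like barcodes.

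Summed levels of H2-Aa were compared with further classes. In CBM, H2-Aa was at 20.6 CPM in HSPC-like barcodes, 3.54 in erythroid-like, 1.39 in granulocyte-monocyte progenitor-like, 1.78 in mast or basophil-like and 4.12 in megakaryocyte-like barcodes of the same library. In TBM the HSPC-like level of 6.61 stood beside 0, 0.37, 0.22 and 1.505 in these classes. H2-Ab1 differed less: against 64.7 CPM in HSPC-like barcodes of CBM it was at 30.4 in granulocyte-monocyte progenitor-like, 31.6 in megakaryocyte-like and 38.8 in mast or basophil-like barcodes, and in TBM at 21.9, 21.7 and 27.4 against 35.8. H2-DMb1 in CBM had intervals of the log2 ratio that held 0 against the granulocyte-monocyte progenitor-like and megakaryocyte-like classes. H2-Aa in HSPC-like barcodes of CBM was still no higher than in free RNA (23.2), whereas in TBM it was above it (6.61 against 3.30). H2-Ab1 was above free RNA in both (64.7 against 41.7, and 35.8 against 18.2). Cd74 was under free RNA in CBM (14.9 against 27.5) and close to it in TBM (7.91 against 9.25, free RNA interval 6.15 to 13.4). H2-Eb1 was under free RNA in CBM (10.8 against 15.5) and close to it in TBM (3.07 against 2.64). In CS the chains and Cd74 were far under free RNA in HSPC-like barcodes, and Cd74 was at 44.0 CPM in mast or basophil-like barcodes against 38.2 in HSPC-like ones, with an interval of the log2 ratio that held 0. In TS, H2-Aa was at 8.39 CPM in HSPC-like and 11.2 in mast or basophil-like barcodes, from 9 UMIs (log2 ratio -0.42, -1.41 to 0.75). Single barcodes weighed on both levels. Without the highest HSPC-like barcode H2-Aa was at 4.39 CPM, and 1 mast or basophil-like barcode held 17 of that class's 46 UMIs of the chains and Cd74. Cd74, H2-Aa and H2-Eb1 in HSPC-like barcodes of TS were under the free RNA of that library too, where they stood at 34.1, 23.0 and 16.6 CPM.

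**Figure D4:**
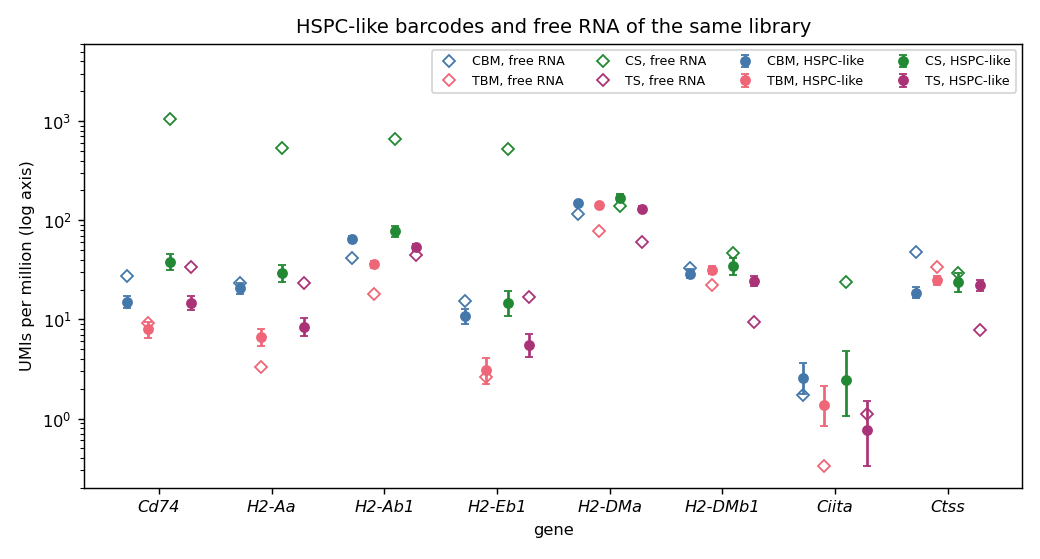
Levels of the 8 genes in HSPC-like barcodes of CBM, TBM, CS and TS (CPM, log axis) with exact Poisson 95% intervals; open diamonds are the free RNA of the same library. H2-DMa lies at 131 to 168 in all 4 libraries, H2-Aa is at 20.6 in CBM and 6.61 in TBM, and the CS diamonds of Cd74, H2-Aa, H2-Ab1 and H2-Eb1 lie above the CS points.

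Between the marrows, TBM over CBM, the HSPC-like log2 ratio was -1.81 for H2-Eb1 (interval -2.33 to -1.32), -1.64 for H2-Aa (-1.99 to -1.30), -0.92 for Cd74 (-1.26 to -0.58) and -0.85 for H2-Ab1 (-1.01 to -0.69). It was -0.04 for H2-DMa, 0.14 for H2-DMb1, 0.42 for Ctss and -0.92 for Ciita (-1.79 to -0.08). 2 of 8 members were down by more than 2-fold and none was up, where 4.01% of all genes were down and 3.29% up. The median was -0.89 against -0.02 over all genes. The chains and Cd74 were thus lower in TBM, and the H2-DM genes and Ctss were not.

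Free RNA was lower in TBM as well, for H2-Aa from 23.2 to 3.30 CPM and for Cd74 from 27.5 to 9.25. With 10% of UMIs subtracted along the free RNA profile, H2-Aa kept a log2 ratio of -1.54, Cd74 of -0.80 and the median was -0.82. In cluster 10 alone H2-Aa was at 15.6 CPM in CBM and 3.61 in TBM, a log2 ratio of -2.11 (-2.94 to -1.34), but Cd74 was at 4.49 and 4.19 and the median was -0.08. In cluster 0 alone the median was -0.94. The summed level of 12 dendritic markers in HSPC-like barcodes was 11.2 CPM in CBM and 14.04 in TBM, with 1 marker at 0 in each, and 7.43 and 5.45 without Clec10a, the highest of them. That of 10 B-lineage markers was 138 and 76.5, with 0 and 1 at 0, and 45.9 and 37.0 without Ighm. The 10 monocyte markers were higher in TBM, at 200.4 and 236 CPM, with 1 at 0 in each. The 10 macrophage markers were at 35.7 and 6.47 CPM, with 0 and 1 at 0. The part of these transcripts in the difference was not tested.

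**Figure D5:**
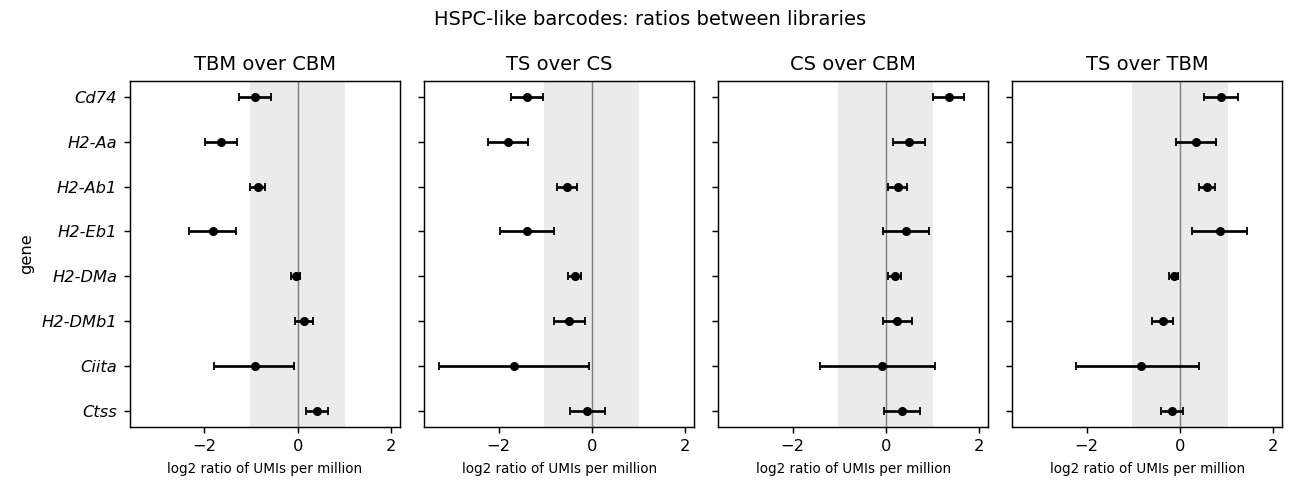
Log2 ratios of the 8 genes in HSPC-like barcodes for TBM over CBM, TS over CS, CS over CBM and TS over TBM, with exact conditional 95% intervals; the grey band marks differences within 2-fold. H2-Aa and H2-Eb1 lie under the band in both comparisons of tumor-bearing with control mice, and H2-DMa lies within the band in all 4 comparisons.

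Between the spleens, TS over CS, the HSPC-like log2 ratio was -1.80 for H2-Aa (-2.23 to -1.36), -1.67 for Ciita (-3.28 to -0.06), -1.40 for H2-Eb1 (-1.97 to -0.81), -1.39 for Cd74 (-1.74 to -1.04) and -0.53 for H2-Ab1 (-0.75 to -0.31). H2-DMa was at -0.37, H2-DMb1 at -0.48 and Ctss at -0.10. 4 of 8 were down by more than 2-fold and none up, where 5.47% of all genes were down and 2.89% up, and the median was -0.96 against -0.05. The chains and Cd74 in CS lay under the free RNA of that library, and their ratios could not be told apart from free RNA. With 10% of UMIs subtracted, the level of the 4 genes in CS fell from 159 to 12.6 CPM. That share of free RNA held more Cd74, H2-Aa and H2-Eb1 than the CS barcodes did, so these genes, and Ciita with under 1 UMI left, were set to 3 counts. The resulting ratios, 3.62 for Cd74 and a median of 1.06, follow from that construction, and no direction was read from them. Dendritic markers summed to 19.7 CPM in CS and 17.7 in TS, with 1 and 2 at 0, and to 13.35 and 8.10 without Clec10a, their highest. B-lineage markers summed to 81.0 and 57.7, with 5 and 2 at 0, and macrophage markers to 73.4 and 13.7, with none at 0. Monocyte markers summed to 289 and 234, with 1 at 0 in each. Each of these sums was lower in TS, and their part in the difference was not tested.

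In TS, 1 HSPC-like barcode of 680, with 7148 UMIs, held 232 of the 859 UMIs of the 4 genes, or 27.01%. Without it, as tried after seeing the data, TS had Cd74 at 5.25 CPM in place of 14.6, H2-Aa at 4.39 in place of 8.39, H2-Eb1 at 1.72 in place of 5.53 and H2-Ab1 at 48.5 in place of 53.4. With the highest CS barcode left out as well, the median log2 ratio of TS over CS was -1.33.

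Spleen was also set against marrow. CS over CBM, Cd74 was up with a log2 ratio of 1.36 (1.02 to 1.69), 1 of 8 past 2-fold, where 3.6% of all genes were up and 4.04% down. The other 7 lay between -0.09 and 0.50, and the median was 0.30 against 0.01. With free RNA subtracted, Cd74 stood at -3.74 and the median at -1.91, again with Cd74, H2-Aa, H2-Eb1 and Ciita in CS set to 3 counts, so no direction was read from these values either. TS over TBM, no member passed 2-fold in either direction, where 2.31% of all genes were up and 5.43% down, with Cd74 at 0.88, H2-Ab1 at 0.57 and H2-DMa at -0.14. Without the highest barcode of both TS and TBM, Cd74 turned to -0.50, H2-Aa was at -0.55 and H2-Eb1 at -0.84. The median of 0.10 became -0.45. Comparisons that share a library are not independent of each other.

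The control of class II transcription was read from further lists in HSPC-like barcodes. Over all genes, 2.31% to 5.47% passed 2-fold in a given direction and comparison, so counts of 0 or 1 among the few genes of a list say little. Of the 7 genes of the RFX, NF-Y and CREB complex none passed 2-fold in any of the 4 comparisons, and Rfx5, a subunit of the RFX complex, was at 18.4 and 17.4 CPM in CBM and TBM and 20.03 and 15.3 in CS and TS. Interferon-gamma is an inducer of Ciita. Irf1, an interferon-induced factor, was at 62.3, 43.4, 106 and 70.7 CPM in the same order of libraries. The receptor gene Ifngr1 was at 70.7, 75.9, 69.8 and 87.8 CPM. Neither gene passed 2-fold in any of the 4 comparisons.

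Of the 4 measured paralogs and chaperones beside the members, 3 had enough UMIs and none passed 2-fold. H2-Ob was at 33.7, 19.01, 29.4 and 19.4 CPM and H2-Oa, its partner, at 15.5, 11.2, 13.4 and 13.5. In endosomal processing, 1 of 7 genes was up and 1 down for TBM over CBM: Ifi30 went from 6.296 to 12.8 CPM (log2 ratio 1.03, interval 0.65 to 1.42) and Lgmn from 3.49 to 0.95 (-1.87, -2.85 to -0.98). TS over CS, Ifi30 was again up, from 6.98 to 15.3 CPM (1.13, 0.49 to 1.83), and for TS over TBM the 1 gene up was Lgmn (1.96, 1.05 to 2.96). Ctsh, an aminopeptidase of the endosome, was the 1 gene down for TS over CS, from 11.2 to 4.86 CPM (-1.21, -1.85 to -0.56). Ctsb and Cst3 were nearly level, at 70.2, 61.0, 61.6 and 59.2 CPM and at 326, 359, 378 and 378. Among co-stimulatory genes Cd86 was at 7.36, 6.20, 6.98 and 3.15 CPM, down by more than 2-fold for TS over CS (-1.15, -1.96 to -0.31). March1 was down for TBM over CBM, from 9 UMIs to 2 (-2.32, -5.57 to -0.05).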

How the data were processed

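The authors aligned reads of 10x 3′ libraries to mm10 and counted UMIs with Cell Ranger 4.0 (both versions per the labels), and the deposited values are raw counts for each gene in each barcode, empty droplets included, without normalization. From them, barcodes with at least 1000 genes and at most 10% mitochondrial UMIs were kept (16261). Pearson residuals (theta 100) of 16403 genes, without the members and the other lists, gave 50 principal components, and 20 neighbors with Leiden clustering at resolution 1.2 gave 36 clusters. A cluster was named where at least 3 fixed markers were among its top 50 genes, unless its top 10 held as many markers of another class, or it was poor in UMIs with no marker in its top 10. The names were rebuilt here and are not the study's clusters. Scrublet called 46 and 62 doublets in CBM and TBM and 22 and 100 in CS and TS, and none was removed. The free RNA of a library was that of its barcodes of up to 100 UMIs, which held 2326696 to 5065985 UMIs per library.

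Levels were summed UMIs scaled to 1000000 (CPM) with exact Poisson 95% intervals. Ratios between libraries had exact conditional intervals, and where a gene had no UMI, or under 3 after subtraction of free RNA, 3 counts stood in. Called means past 2-fold, among genes with at least 10 UMIs in both libraries together. With 1 library per group, no test was run and no p-value is given. Shares were computed after thinning to 2000 UMIs, with exact binomial intervals; intervals cover counting error only. The ratio code was tested on simulated counts. scanpy 1.11.5, leidenalg 0.10.2, numpy 2.4.6, scipy 1.17.1 and Python 3.11.15 were used. Positions come from GENCODE for mm10 and promoters from RefSeq for GRCm38.p6. Genes named are the members, the further lists, the 10 genes most like Cd74 and the chains, and markers. The members and lists were chosen with earlier results of these data known. One of the listed genes outside the members is not reported here. Alternatives covered the barcode filters, class naming, resolution, free RNA, doublets, scaling, weighting and depth of thinning.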

Additional observations from a re-analysis of the deposited data

How the results depend on the processing

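No paired analysis was possible because each group holds 1 library, and for the same reason no library could be left out. Levels of Cd74, H2-Aa, H2-Ab1 and H2-Eb1 summed in HSPC-like barcodes, in the order CBM, TBM, CS and TS, were 111, 53.4, 159 and 81.9 CPM. They were 135.9, 79.4, 517 and 73.0 with each barcode classed by its own markers, 175.7, 83.2, 243 and 123 CPM when scaled without mitochondrial, ribosomal, hemoglobin and immunoglobulin genes, and 124, 60.1, 229 and 115 as a mean over barcodes. CS was at 177 with at least 350 genes and 12.6 with 10% of UMIs subtracted as free RNA. In barcodes with no UMI of 38 rare markers of other classes, CS was at 135 and TS at 56.9. These were 44 barcodes in CS, under the minimum of 50 used for ratios, and 243 in TS. TS was at 59.7 at resolution 2 and 59.8 without its highest barcode. The planned restriction to barcodes without any marker of other classes left 6, 2, 0 and 5 barcodes and gave no value.

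Of the HSPC-like medians, TBM over CBM moved to -0.079 in cluster 10 alone. TS over CS moved to -1.36 at resolution 2, -1.33 without the highest barcode of each library and 1.06 with free RNA subtracted. CS over CBM moved to -1.91 with free RNA subtracted. TS over TBM moved to -0.47 by each barcode's markers, -0.49 at resolution 2 and -0.51 without rare markers. It was -0.45 without the highest barcode of each library and -0.37 in cluster 10 alone. The T, NK or innate lymphoid-like median for TS over CS was -3.61 at resolution 0.6. Monocyte-like medians for TBM over CBM were -0.19 by each barcode's markers, 0.34 as a mean over barcodes and -0.43 without cluster 25, and for CS over CBM 5.20 by each barcode's markers and 0.70 without cluster 25. Subtraction of free RNA also turned Cd74 (3.62), H2-Aa (2.74) and H2-Eb1 (2.09) for TS over CS and Cd74 (-3.74) for CS over CBM. Class-wide Cd74 in B-lineage-like barcodes, 1.07 for TBM over CBM, was -0.34 in the Ms4a1 cluster and 0.54 in the Vpreb1 and Igll1 cluster that hold them at resolution 2. By construction, subtraction left under 3 UMIs of Cd74, H2-Aa, H2-Eb1 and Ciita in CS, which were then set to 3 counts, so no direction can be read from these values. The cause of the other moves was not tested. Thinned to 5000 UMIs, the HSPC-like shares with a Cd74 UMI were 7.36%, 4.42%, 12.7% and 2.83%, and with an H2-DMa UMI 52.0%, 50%, 53.3% and 51.7%. Without thinning they were 13.9%, 8.73%, 41.7% and 6.03%, and 84.3%, 81.9%, 94.7% and 82.5%, so a share depends on depth, and at 2000 UMIs Cd74 is seen in few barcodes.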
